A study of Mus musculus with 16 samples.

Results

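Of the 80367 peaks in the 2 deposited lists of differentially accessible chromatin, 692 lay near microRNA (miRNA) genes. A peak was counted when its centre was within 5 kb of a gene of type miRNA in the GENCODE annotation of mm10 and over 1 kb from every protein-coding transcription start, so that promoters of neighbouring coding genes were left out. The lists compared 2 populations of small cell lung cancer (SCLC) cells by ATAC-seq, which reads out open chromatin through the insertions of the Tn5 transposase. Each mouse gave both populations and carried the TKO;Hes1 GFP/+ genotype. Adenoviral Cre driven by the CMV promoter, given into the trachea of adult animals, had deleted floxed Rb, p53 and p130 in all groups, and GFP was expressed from the Hes1 locus as a readout of Notch activity. GFPhigh cells were the non-neuroendocrine (non-NE) population and GFPneg cells the neuroendocrine (NE) population, sorted from the pooled tumors of a mouse after lineage-positive (blood and endothelial) cells had been gated out. The labels gave 4 pairs of populations from 3 mice, with 2 of the pairs from 1 mouse, and 8 libraries run on 2 lanes each. A peak is called opened where it was more accessible in GFPhigh cells and closed where it was less accessible there. The value given with a peak is the authors' mean of normalized reads over all libraries of both groups, termed mean signal below. It is a level and not a difference, and it has no SD, since no values of single libraries were used here and the depth of each library is unknown. Samples could therefore not be shown one by one, and no difference between the groups was tested again.

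A miRNA is made from a hairpin in a longer primary transcript, which is cut to a short mature strand that guides Argonaute proteins to partly matching messenger RNAs. Bases 2 to 8 of the mature strand, the seed, carry most of the pairing, so miRNAs with the same seed form a family even when their genes lie on different chromosomes. Many hairpins lie in introns or exons of longer coding or non-coding host genes, and a peak near a hairpin can belong to the primary transcript's promoter, to an enhancer or to the host. In the airway and its tumors, miR-375 and miR-7 are known from neuroendocrine cells, miR-200 family members and miR-205 from epithelium, miR-34b and miR-34c from multiciliated cells, and miR-21 as a miRNA induced by growth factor signaling.

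The mature miRNAs that the results below turn on are shown first, from the RefSeq miRNA table for GRCm38.p6, 5′ to 3′ with the seed in capitals. Of the 301 miRNA genes with an official symbol that were nearest to a peak, 276 had a mature sequence in that table. The first set holds miRNAs with equal seeds whose genes had peaks in opposite lists. Mir7-1 and Mir7b, Mir138-2 and Mir138-1, Mir30a and Mir30e, and Mir21a and Mir21c are pairs with an opened peak near the gene named first and a closed peak near the gene named second, and both Mir138 genes give the same mature miR-138-5p.
miR-7a-5p (Mir7-1): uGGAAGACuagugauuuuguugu
miR-7b-5p (Mir7b): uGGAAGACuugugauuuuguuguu
miR-138-5p (Mir138-1 and Mir138-2): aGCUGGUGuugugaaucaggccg
miR-30a-5p (Mir30a): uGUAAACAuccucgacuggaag
miR-30e-5p (Mir30e): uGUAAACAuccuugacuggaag
miR-21a-5p (Mir21a): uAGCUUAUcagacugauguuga
miR-21c (Mir21c): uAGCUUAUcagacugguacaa

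The second set is shown because every peak assigned to these genes was closed, and it holds neural miRNAs and the Mir344 family.
miR-129-5p (Mir129-1): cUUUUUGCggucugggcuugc
miR-137-3p (Mir137): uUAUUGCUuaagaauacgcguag
miR-153-3p (Mir153): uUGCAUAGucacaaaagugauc
miR-218-5p (Mir218-2): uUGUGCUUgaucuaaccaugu
miR-488-3p (Mir488): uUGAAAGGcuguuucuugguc
miR-344-3p (Mir344): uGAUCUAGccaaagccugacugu
miR-344c-3p (Mir344c): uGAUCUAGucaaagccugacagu

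The third set is shown because every peak assigned to these genes was opened. The seed AACAGUC was shared by miR-132-3p and miR-212-3p, which come from 1 locus, and let-7b-5p and let-7c-5p shared the seed GAGGUAG.
miR-22-3p (Mir22): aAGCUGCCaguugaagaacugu
miR-203-3p (Mir203): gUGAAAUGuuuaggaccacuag
miR-205-5p (Mir205): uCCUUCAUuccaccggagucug
miR-34b-5p (Mir34b): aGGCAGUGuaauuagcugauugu
miR-132-3p (Mir132): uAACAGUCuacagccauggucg
miR-212-3p (Mir212): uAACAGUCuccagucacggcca
let-7b-5p (Mirlet7b): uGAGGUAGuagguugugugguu
let-7c-5p (Mirlet7c-2): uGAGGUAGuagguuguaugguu

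The reference sequences of 8 peaks follow, read from the plus strand of GRCm38.p6 over the whole peak or its central 300 bases. They were chosen because they carry the loci described below. In a motif string, N stands for any base. Capitals mark AP-1 strings (TGANTCA) in the peaks near Mir375, Mir129-1, Mir21a and Mir203, TEAD strings (GGAATG or its reverse complement CATTCC) near Mir34b, FOX strings (TGTTTAC or its reverse complement) at Mir30e, and the hairpin gene itself at Mir383 and Mir344.
Mir375, closed, chr1:74902247-74902457: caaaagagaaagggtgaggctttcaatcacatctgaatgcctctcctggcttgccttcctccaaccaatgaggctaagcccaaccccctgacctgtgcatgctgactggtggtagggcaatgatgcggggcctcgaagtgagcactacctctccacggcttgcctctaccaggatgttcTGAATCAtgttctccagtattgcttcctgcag
Mir129-1, closed, chr6:29023223-29023522: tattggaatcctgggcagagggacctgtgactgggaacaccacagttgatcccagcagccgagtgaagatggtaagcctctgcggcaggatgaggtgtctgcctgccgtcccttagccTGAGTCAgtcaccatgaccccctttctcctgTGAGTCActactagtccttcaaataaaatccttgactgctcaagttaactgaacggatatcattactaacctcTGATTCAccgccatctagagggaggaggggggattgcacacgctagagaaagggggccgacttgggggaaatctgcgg
Mir30e, closed, chr4:120772565-120772782: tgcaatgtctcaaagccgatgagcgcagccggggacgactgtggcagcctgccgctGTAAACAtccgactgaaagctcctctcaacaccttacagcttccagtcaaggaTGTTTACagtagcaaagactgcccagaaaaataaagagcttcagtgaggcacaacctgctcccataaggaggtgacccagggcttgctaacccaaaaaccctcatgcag
Mir383, closed, chr8:38252099-38252284: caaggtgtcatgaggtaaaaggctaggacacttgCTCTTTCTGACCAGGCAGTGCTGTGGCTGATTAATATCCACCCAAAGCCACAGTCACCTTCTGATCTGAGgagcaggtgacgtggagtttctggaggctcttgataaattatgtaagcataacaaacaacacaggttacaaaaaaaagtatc
Mir344, closed, chr7:61877670-61877969: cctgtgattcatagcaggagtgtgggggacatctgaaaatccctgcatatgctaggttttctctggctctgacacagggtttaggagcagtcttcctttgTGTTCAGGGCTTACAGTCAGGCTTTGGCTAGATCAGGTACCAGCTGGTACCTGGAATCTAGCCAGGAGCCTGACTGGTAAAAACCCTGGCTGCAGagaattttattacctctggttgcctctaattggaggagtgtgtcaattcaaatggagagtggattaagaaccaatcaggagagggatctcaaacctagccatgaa
Mir21a, opened, chr11:86587071-86587370: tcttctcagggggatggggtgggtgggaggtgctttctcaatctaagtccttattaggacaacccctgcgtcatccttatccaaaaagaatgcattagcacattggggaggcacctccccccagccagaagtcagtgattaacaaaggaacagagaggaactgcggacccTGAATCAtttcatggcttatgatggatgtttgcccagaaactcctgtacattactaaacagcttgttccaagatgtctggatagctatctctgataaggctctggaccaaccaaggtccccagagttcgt
Mir203, opened, chr12:112130357-112130656: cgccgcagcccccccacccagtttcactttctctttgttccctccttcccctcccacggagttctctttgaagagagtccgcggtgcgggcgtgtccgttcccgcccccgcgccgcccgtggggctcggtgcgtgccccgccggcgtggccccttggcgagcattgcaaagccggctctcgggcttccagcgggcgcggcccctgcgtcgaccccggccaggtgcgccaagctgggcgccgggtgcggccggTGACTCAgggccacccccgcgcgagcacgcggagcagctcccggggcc
Mir34b, opened, chr9:51107761-51108060: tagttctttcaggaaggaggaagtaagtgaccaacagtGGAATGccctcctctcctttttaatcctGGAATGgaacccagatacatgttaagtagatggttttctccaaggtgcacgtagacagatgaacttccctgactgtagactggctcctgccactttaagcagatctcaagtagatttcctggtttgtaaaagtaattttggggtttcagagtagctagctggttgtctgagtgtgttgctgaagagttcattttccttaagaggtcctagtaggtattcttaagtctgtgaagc

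Of the 692 peaks near miRNA genes, 386 were opened and 306 were closed, an opened share of 55.8% (95% Wilson interval 52.1 to 59.4, which covers counting error only). Among all listed peaks 50.8% were opened, and among the 70005 listed peaks over 1 kb from a protein-coding start the opened share was 47.3%. The share varied with where a peak lay relative to coding genes. Between 1 and 5 kb from the nearest protein-coding start, 56.2% of the peaks near miRNA genes (48.1 to 64) and 60.1% of the other distal peaks were opened. The shares were 65.9% (59.5 to 71.8) and 56.3% at 5 to 20 kb, 57.7% (51.1 to 64) and 47.4% at 20 to 100 kb, and 27.6% (19.7 to 37.1) and 32.5% over 100 kb away. It also varied by chromosome, and chromosome 11 held 68 of the 692 peaks. There, 61 of the 68 were opened (89.7%, 80.2 to 94.9), against 64.3% of the other distal peaks of that chromosome. Without chromosome 11 the opened share near miRNA genes was 52.1% (48.2 to 56), and that of the other distal peaks was 46.2%. When the other distal peaks were weighted to the same distances from coding starts and the same share on chromosome 11, 51.5% of them were opened, which lies just under the interval of the peaks near miRNA genes. The part of chromosome 11 in this share was not tested further.

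**Figure D1:**
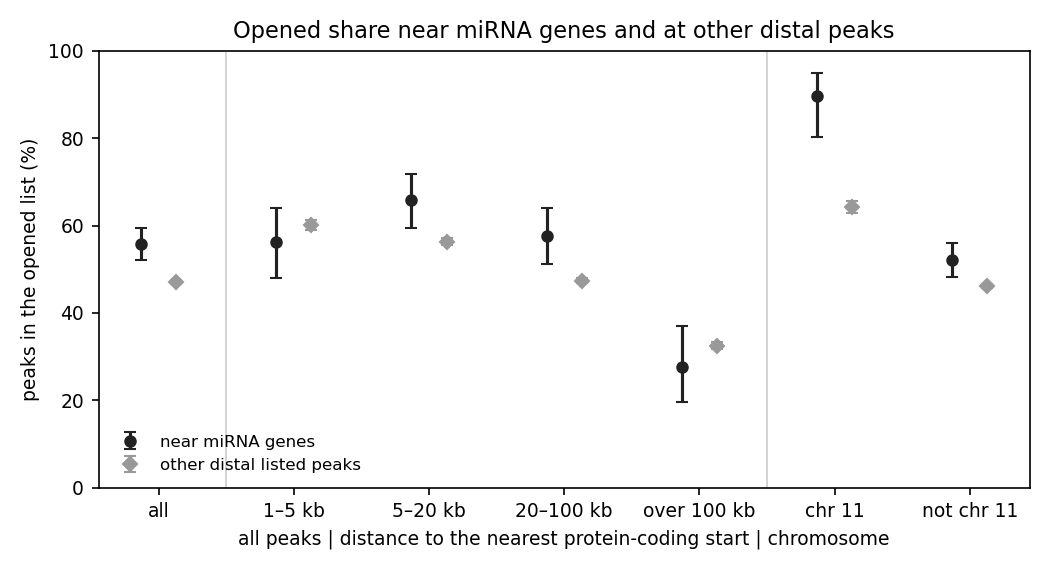
Share of peaks in the opened list (%) for peaks near miRNA genes (black circles) and all other distal listed peaks (grey diamonds), in all peaks, by distance to the nearest protein-coding start and by chromosome, with 95% Wilson intervals as bars. The share near miRNA genes falls from 65.9% at 5 to 20 kb from a coding start to 27.6% beyond 100 kb, and reaches 89.7% on chromosome 11.

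The opened share did not step at the 5 kb limit. It was between 53.5% and 58.4% in each kilobase from the miRNA gene outward, 59.3% in the 648 distal peaks at 5 to 10 kb, and 56.7% in those at 50 to 100 kb. In the 50238 distal peaks over 200 kb from any miRNA gene it was 44.3%. Just inside and just outside the limit lay an opened peak at 5000 bp from Mir7041 with a mean signal of 21.6 and a closed peak at 5001 bp from the gene model Gm44491 with 26.7. The coding-start limit removed 277 of the 969 listed peaks within 5 kb of a miRNA gene, and 243 of these were opened. Of the members, 358 lay upstream of the hairpin gene (57.5% opened, 52.4 to 62.6) and 321 downstream (54.8% opened, 49.4 to 60.2). Another 13 had their centre in the hairpin gene (30.8% opened, 12.7 to 57.6). Opened and closed peaks were spread over the whole window.

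**Figure D2:**
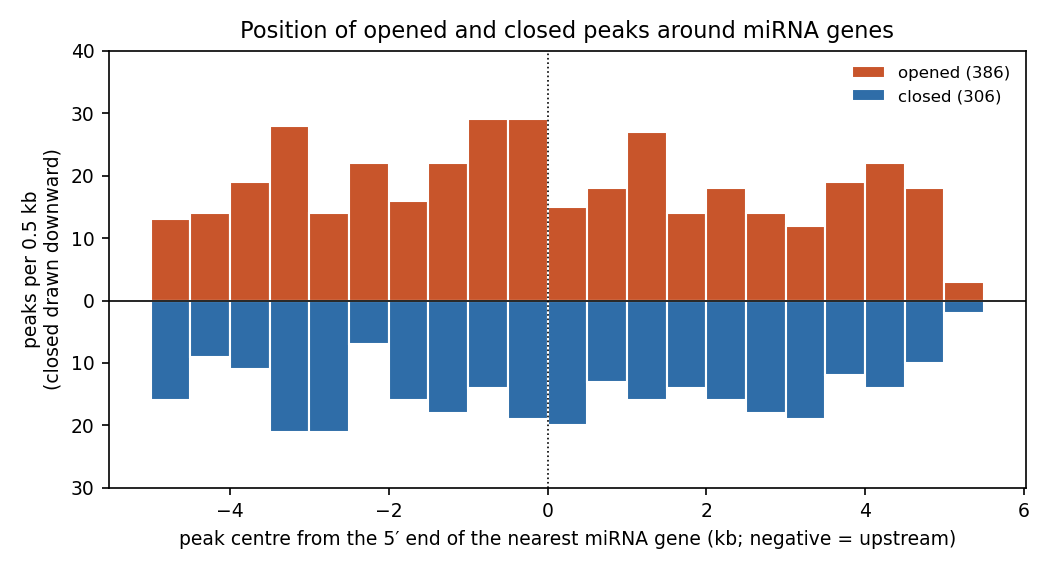
Number of opened (upward) and closed (downward) peaks per 0.5 kb by the distance of the peak centre from the 5′ end of the nearest miRNA gene, in kb, with upstream to the left. Both lists cover the window on both sides of the hairpin, 358 peaks upstream and 321 downstream.

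The median mean signal of peaks near miRNA genes was 40.2 normalized reads for opened peaks and 30.2 for closed peaks, above the medians of 32.5 and 24.9 in the other distal peaks of the same lists. These differences were not tested. The median GC content of their central 200 bp was also higher, 53% against 49% for opened peaks and 51.5% against 48% for closed peaks, and its part in the signal was not tested. The peaks were assigned to 493 nearest miRNA genes. The 420 peaks at genes with an official symbol were 58.3% opened (53.6 to 63), and the 272 at predicted gene models were 51.8% opened (45.9 to 57.7). Hairpins inside a coding host on the same strand accounted for 348 peaks, of which 61.2% were opened (56 to 66.2). Of the 62 peaks at hairpins in a non-coding host on the same strand, 46.8% were opened (34.9 to 59), and these intervals overlap.

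In all, 481 of 1802 miRNA loci (hairpins within 10 kb of each other taken as 1 locus) had a member peak. Of these loci 238 had opened peaks alone and 28 had both kinds, and the rest had closed peaks alone. Among the 150 loci with 2 or more peaks, 76 were opened throughout, 46 closed throughout and 28 mixed, and among the 48 with 3 or more the counts were 27, 9 and 12. Peaks of 1 locus are neighbours on the chromosome and are not independent of each other. How often neighbouring listed peaks elsewhere share a direction was not counted.

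Of 17 peaks nearest to a gene of the neural and neuroendocrine list, 13 were closed and 4 were opened, an opened share of 23.5% (9.56 to 47.3). Among all 692 peaks the share was 55.8%, and among all distal listed peaks it was 47.3%, the upper end of that interval. Of the 17 peaks, 6 lay over 100 kb from a coding start, where most peaks near miRNA genes were closed, and all 6 were closed. The other 11 peaks were 36.4% opened (15.2 to 64.6), an interval that takes in both shares. By gene, 16 of 39 had a peak within 5 kb (41%, against 24.8% of all 2202 miRNA genes). All genes of the lists have official symbols, and 29.5% of the 1174 genes with official symbols had such a peak. Closed peaks alone were found at 10 of the 16 (62.5%, against 47.1% of all miRNA genes with a peak). The other 6 had opened peaks alone (37.5%, against 47.6%). Hairpins of 1 cluster were counted as separate genes and can share a peak. Mir375 (chromosome 1), whose product is abundant in pancreatic islets and neuroendocrine cells, had 3 closed peaks and no opened one. The strongest, chr1:74902247-74902457 with a mean signal of 62.7, was centred 1631 bp upstream of the hairpin in an exon of a non-coding transcript, and the other two, with 24.2 and 17.6, lay 3792 and 4773 bp downstream of its 5′ end, toward the coding gene Cryba2. The printed sequence of the strongest peak holds 1 AP-1 string, with the letters TGAATCA. Mir488, in an intron of the neuronal gene Astn1, had closed peaks on both sides, with mean signals of 58.4 and 50.8.

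Single closed peaks lay near Mir129-1 (mean signal 100), Mir153 in Ptprn2 (98.3), Mir137 (47.4), Mir346 in Grid1 (41.1) and Mir218-2 in the axon guidance gene Slit3 (34.7). The hosts Ptprn2, which codes for a protein of secretory vesicles, Grid1 and Slit3 are known neuronal or neuroendocrine genes, and whether a peak serves the host or the hairpin cannot be told apart here. The peak 753 bp downstream of the 5′ end of Mir129-1 held 3 AP-1 strings. At Mir383, in an intron of Sgcz, the closed peak was centred on the hairpin itself and was weak, with a mean signal of 10.5. All 70 bases of this hairpin fell inside the 186 bases of the peak.

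The 4 opened peaks of the list lay near Mir212 and Mir132, Mir7-1, Mir138-2 and Mir219a-2. Another 2 opened peaks, near Mir219a-1 and Mir219c, lay at the coding starts of Ring1 (241.3) and H2-Ke6 (262.2) and were not counted. The peak at Mir212, with a mean signal of 278, was 853 bp wide and took in both hairpins of a locus that is known to respond to CREB in neurons. Mir7-1, in the ubiquitous gene Hnrnpk, had its opened peak 4860 bp downstream of the hairpin's 5′ end (mean signal 72.4), whereas Mir7b had a closed peak 1182 bp upstream (127). Both genes give miR-7 with the seed GGAAGAC. Mir138-2 had an opened peak (16.6) and Mir138-1 a closed one (8.95), and they give the same mature miRNA. For both families, gene copies with 1 seed were thus in opposite lists. No listed peak under the rule lay near any gene of the miR-9, miR-124 or miR-128 families. The lists hold differential peaks only, so this does not show that chromatin at those genes was closed or equal in both populations.

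**Figure D3:**
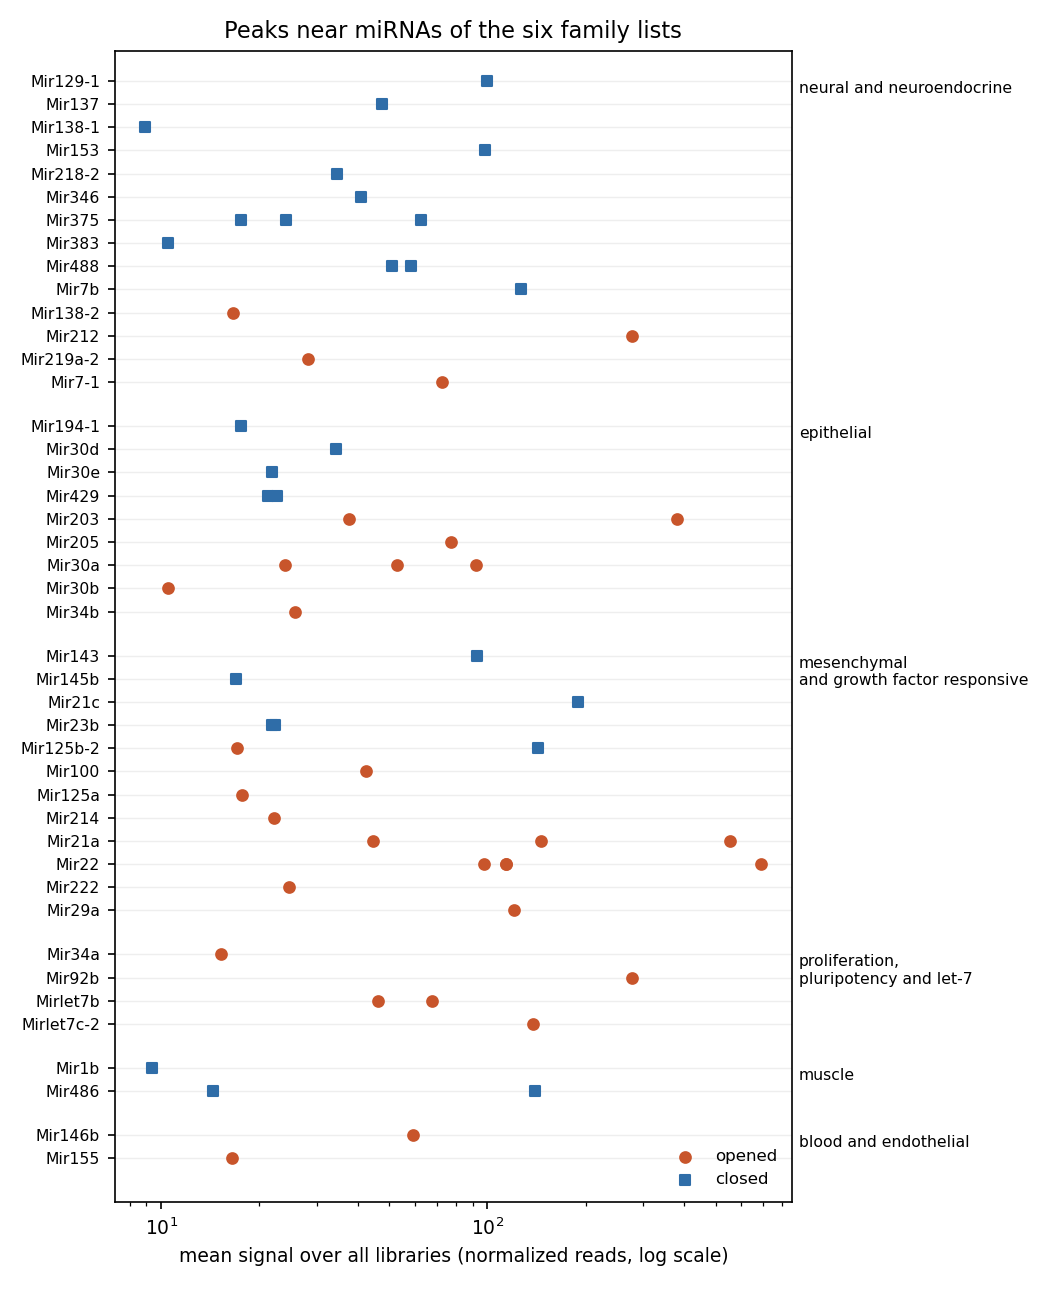
Mean signal over all libraries (normalized reads, log scale) of each peak nearest to a miRNA gene of the 6 family lists, 1 row per gene, with opened peaks as orange circles and closed peaks as blue squares. Closed peaks fill most rows of the neural and neuroendocrine list (13 of 17 peaks), and the highest values are opened peaks at Mir22 (690) and Mir21a (554).

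Mesenchymal and growth factor responsive miRNAs had 13 opened and 6 closed peaks, an opened share of 68.4% (46 to 84.6) that takes in the 55.8% of all 692 peaks. Of the opened peaks 7 lay on chromosome 11, at Mir22 and Mir21a, and without that chromosome 6 of 12 peaks were opened (50%, 25.4 to 74.6). By gene, 19 of the 34 had a peak within 5 kb (55.9%, against 24.8% of all miRNA genes and 29.5% with official symbols). The strongest peaks of the 6 lists were here. Mir22 (chromosome 11, coding host Tlcd2) had 4 opened peaks from 587 to 3091 bp upstream of its hairpin. Their mean signals were 690, 114, 114 and 97.4. Of these peaks, 3 lay within 1 kb of a start of the non-coding transcript Mir22hg. Mir21a (chromosome 11), whose miRNA is induced by growth factors and AP-1 in many tumors, had 3 opened peaks with mean signals of 554, 146.2 and 44.7. The strongest, chr11:86586788-86587652, was centred 3062 bp upstream of the hairpin in an intron of its host Vmp1. Its printed central stretch holds 1 AP-1 string, with the letters TGAATCA. Both loci are on chromosome 11, where 64.3% of the other distal peaks were opened as well.

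Further opened peaks of the list lay near Mir29a and Mir29b-1 (mean signal 121), whose miRNAs target collagen transcripts, and near Mir100 (42.3), Mir222 and Mir221 (24.6), Mir214 in Dnm3os (22.1) and Mir125a (17.7). Closed peaks lay near Mir21c (190), near Mir143 and Mir145a (93.1), known from smooth muscle, near Mir145b (17) and upstream of Mir23b and Mir27b (22.4 and 21.8). Another closed peak of the latter cluster (16.2) overlapped Mir3074-1. Mir125b-2, in the non-coding host Mir99ahg, had a closed peak with a mean signal of 142.8 and an opened peak with 17.1, 1762 and 1088 bp upstream of the hairpin. It was the only gene of the 6 lists with both opened and closed nearest peaks. Opened peaks near Mir130c (59.9 and 11.6) lay within 1 kb of a coding start and were not counted.

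Epithelial miRNAs had peaks in both lists. Of their 13 peaks, 8 were opened and 5 closed (61.5% opened, 35.5 to 82.3, which takes in the 55.8% of all members). A peak within 5 kb was found at 15 of 27 genes (55.6%, against 24.8% of all miRNA genes and 29.5% with official symbols). By gene, 6 had opened peaks alone (40%, against 47.6%) and 9 closed peaks alone (60%, against 47.1%). Clustered hairpins counted as separate genes here, so these 9 genes rest on the 5 closed peaks. Mir203, which restrains p63 in stratified epithelium, had opened peaks 374 and 1194 bp upstream of the hairpin, with mean signals of 381 and 37.6, and Mir205, a miRNA of basal epithelial cells, had an opened peak with 77.3. Mir34b and Mir34c, which are p53 targets and act in multiciliated cells, had an opened peak 4265 bp upstream (25.7) with 2 TEAD strings in the printed sequence. In contrast, the cluster of Mir429, Mir200a and Mir200b, whose miRNAs repress Zeb1 and Zeb2, had 2 closed peaks with mean signals of 22.6 and 21.2, 254 bp upstream and 640 bp downstream of the 5′ end of Mir429. The other miR-200 cluster, with Mir141 and Mir200c, had no peak under the rule, and neither had the Mir449 genes. Of 5 marker genes of multiciliated cells, Mir34b and Mir34c alone had a member peak. A closed peak (17.5) lay near Mir194-1 and Mir215.

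The miR-30 family had both kinds of peak. Mir30a had 3 opened peaks (92.3, 52.7 and 24) within 3976 bp upstream and Mir30b an opened peak (10.5), but Mir30d (34.3) and Mir30e (21.8) had closed peaks. The Mir30e peak, in an intron of Nfyc, was centred in the hairpin. Both FOX strings that the motif search found in it are letters of miR-30 sequences, since the 7 bases of the FOX string equal the DNA form of the miR-30 seed GUAAACA. Of the 2 matches, that at chr4:120772674-120772680 covers bases 2 to 8 of miR-30e-5p, and the other covers bases 1 to 7 of miR-30f on the opposite strand and bases 13 to 19 of miR-30e-3p. In this peak the FOX string and the miRNA are thus the same letters.

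The remaining lists had few peaks. The proliferation, pluripotency and let-7 list had 5 peaks, all opened (interval from 56.6%, against 55.8% of all 692 peaks). Of its 46 genes, 6 had a peak within 5 kb (13%, against 24.8% of all miRNA genes and 29.5% with official symbols). The peaks lay around Mirlet7c-2 and Mirlet7b (mean signals 137.6, 67.7 and 46.2), 275 bp upstream of Mir92b (278) and near Mir34a (15.2), and none lay near genes of the miR-17, miR-302 or miR-290 clusters. Mir25, Mir93 and Mir106b, in Mcm7, had an opened peak (142.1), but it lay 65 bp from the start of the coding gene Cops6 and was not counted. Muscle miRNAs had 3 closed peaks and no opened one (interval up to 56.1% opened, which takes in the 55.8% of all 692 peaks), 2 near Mir486 in Ank1 (140 and 14.4) and 1 near Mir133a-1, Mir1b and Mir1a-2 (9.38). By gene, 4 of 12 had a peak within 5 kb (33.3%, against 24.8% of all miRNA genes and 29.5% with official symbols).

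Markers of other cell types were followed in the same way, since sorted tumor cells can carry cells of another type. Of the 18 genes of the blood and endothelial list, 2 had a member peak (11.1%). The share was 24.8% of all miRNA genes and 29.5% of those with official symbols. Both peaks nearest to genes of the list were opened (interval from 34.2%, which takes in the 55.8% of all 692 peaks). Of 5 leukocyte marker genes 1 had a member peak, the opened peak of Mir155 (16.5). None of the 3 genes followed as erythroid markers (Mir144 and both Mir451 genes) had a member peak. Mir486, which had closed peaks, was counted in the muscle list and not among these markers. Both endothelial Mir126 genes had an opened peak (28.9) only at the coding start of Egfl7. Mir146b, a miRNA of activated leukocytes and also of epithelium, had an opened peak (59.2). The part of other cells in the opened peaks was not tested.

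Peaks that lay over the hairpins themselves were few, 43 of 692, of which 20 were opened (46.5%, 32.5 to 61.1). This interval takes in the 55.8% of all 692 peaks and the 47.3% of all distal listed peaks. At genes with an official symbol there were 34, with 16 opened and 18 closed. The 5 with the highest mean signal were opened, at Mir7687 (534), Mir7671 (439), Mir212 (278), Mir6715 (215.4) and Mir7008 (160). The peak at Mir7671 was centred 6278 bp from the start of the interferon response gene Irf1, and this hairpin had 2 further opened peaks (196 and 169).

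Several of the closed hairpin peaks lay in 1 array, which was singled out after its values had been seen. Mir344 hairpins are repeated 13 times over 402 kb of chromosome 7, and the coding gene nearest to the peaks over them is Ndn, an imprinted neuronal gene. The array held 11 listed peaks, all of them closed, and 9 of these were members. All 9 lay over 100 kb from a coding start, where 30.3% of the 89 other peaks near miRNA genes (21.8 to 40.5) and 32.5% of the other distal peaks were opened. Of these 9, 7 overlapped a hairpin gene, at Mir344c (36.7), Mir344 (50.1), Mir344-2 (82), Mir344g (144.5), Mir344f (88.3), the gene model Gm24923 (173) and Mir344i (94). Most member peaks of the array thus lay over a hairpin gene. The cluster of hairpins at the other end of the array had 1 weak peak, near Mir344d-2 (9.72). The hairpins are copies of each other, so reads could be shared among them. Between 0 and 9.45% of the 30-base stretches of each member peak occurred more than once in the array, with a median of 0%. Mir344, Mir344-2 and Mir344c share the seed GAUCUAG in their 3p miRNA, and Mir344g, Mir344, Mir344-2 and Mir344c share GUCAGGC in their 5p miRNA. This array is 1 region of the genome and its peaks count as neighbours, not as replicates.

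**Figure D4:**
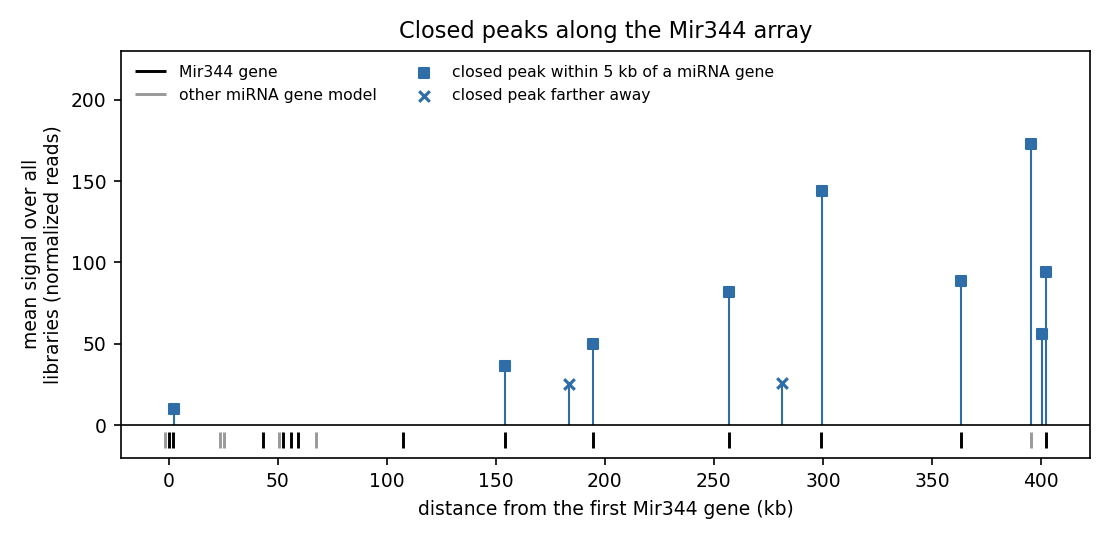
Closed peaks along the Mir344 array, with the distance from the first Mir344 gene in kb and the mean signal over all libraries in normalized reads. Ticks below 0 are hairpin genes (black for Mir344, grey for other miRNA gene models), squares are the 9 closed peaks within 5 kb of a miRNA gene, and crosses are the 2 closed peaks farther away. From Mir344c onward, each hairpin gene has a closed peak over it.

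The cluster from Mir379 to Mir3072 on chromosome 12 holds 44 miRNA genes within 38.9 kb and had 3 listed peaks, all closed. They too lay over 100 kb from a coding start, where 27.6% of all peaks near miRNA genes were opened. It lies in the imprinted Dlk1-Dio3 domain, whose miRNAs are expressed from the maternal allele. They lay near Mir3072 (141.5), over Mir134 (15.5) at a start of the non-coding RNA Mirg, and near Mir667 (11.1).

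Most of the 48 loci with 3 or more peaks belong to no family of the lists. Opened throughout were Mir6943 in Grk6 with 5 peaks (15.9 to 83.8), Mir6926 in Sgsm2 with 4 (7.99 to 32.2), Mir3089 with 4 (16.9 to 130), Mir3965 with 4 (26.4 to 63.2) and Mir3109 in Anxa2 with 3 (29.5 to 148). Others with 4 or 3 opened peaks and no closed one were Mir1191b, Mir6919, Mir7671, Mir6921 with Mir6922, Mir7117, Mir6955, Mir3083, Mir1953, Mir5123 with Gm24112 and Gm25931, Mir3097 and the gene models Gm44467, Gm22117, Gm27541, Gm44342, Gm25195, Gm47301, Gm23617 and Gm24865. Closed throughout were Mir7661 in Itpr1 (271, 60.7 and 32), Mir1895 near Cxxc4 (160, 68.7 and 48.3), and the predicted models Gm44384, Gm27476 and Gm24330. Mixed loci were Mir26a-1 in Ctdspl, with closed peaks of 29.9 and 14.1 and an opened peak of 26.6, Mir28a in Lpp, with closed peaks of 84.8 and 74 and an opened peak of 21.6, and Mir135a-2 in Rmst, with opened peaks of 183.5 and 55.3 and a closed peak of 38. Also mixed were Gm26043, with 3 opened and 2 closed peaks, and Gm23419 with Mir6935, Mir1190, Mir6386, Mir7662, Mir6940, Gm25301 with Mir378a, Gm22518 and Gm27686, with 3 or 4 peaks each.

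The opened peak with the highest mean signal was near Mir7655 in Mllt10 (1070), followed by those near Mir22, Mir6919 in Mgat4b (564), Mir21a and Mir26b in Ctdsp1 (546). The highest closed peaks were near the gene model Gm25986 (456), Mir6391 in Abcc4 (289), Mir7661 (271), Mir6999 in Dgkz (222.5) and the gene model Gm44465 (210). Most of these miRNAs lie inside coding hosts, and the peaks can belong to the hosts.

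Short strings for 6 factor families were searched on both strands in the central 200 bp of each peak. The TEAD string GGAATG was present in 20.5% of opened peaks near miRNA genes (79 of 386, 16.7 to 24.8) and in 7.84% of closed ones (24 of 306, 5.33 to 11.4). In all other distal listed peaks its shares were 20.3% and 8.92%. The AP-1 string TGANTCA was present in 12.2% of opened (9.28 to 15.8) and 24.8% of closed peaks (20.3 to 30), against 12.1% and 27.5% of other distal peaks. For TEAD and AP-1, opened and closed peaks thus stood apart near miRNA genes in the same direction as at other distal sites, and the intervals near miRNA genes took in the values of the other distal peaks.

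The FOX string TGTTTAC was present in 5.7% of opened and 11.4% of closed peaks (other distal 7.96% and 10.2%), the NKX2 string CACTTNA in 17.6% and 13.7% (21.5% and 15.5%), and the RBPJ string TGGGAA in 21% and 16.7% (22.2% and 16.5%). TEAD and RBPJ strings can overlap, and 8 of the 692 peaks held a site in which they did. The longer NFI string, TTGGC and GCCAA with 5 bases between them, was found in 0 of 386 opened peaks (interval up to 0.985%) and in 2 of 306 closed peaks, too few to describe. A string match is a description of the letters in these windows and not of binding.

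**Figure D5:**
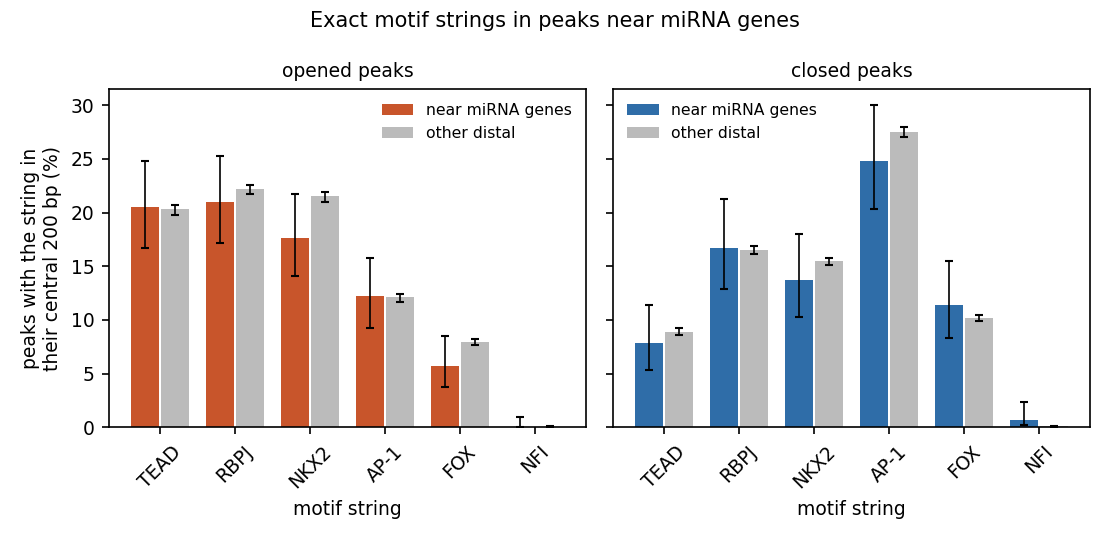
Share of opened (left) and closed (right) peaks that hold each motif string in their central 200 bp (%), for peaks near miRNA genes (coloured bars) and other distal listed peaks (grey bars), with 95% Wilson intervals. TEAD strings are present in 20.5% of opened and 7.84% of closed peaks near miRNA genes, next to 20.3% and 8.92% elsewhere.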

How the data were processed

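The ATAC-seq data came from 16 runs of 8 libraries, 4 from GFPhigh and 4 from GFPneg cells. The authors trimmed paired-end reads, aligned them to mm10 with Bowtie2 2.3.4.1, dropped duplicates (Samtools), then used MACS2 for narrow peaks, each read end shifted and extended to centre on the Tn5 cut site. They merged the peaks of all samples, counted reads per peak with bedtools and compared the groups with DESeq2 (1.28.1 per the labels' processing notes). The signal that the authors deposited for each peak is a read count scaled by size factors and averaged across every library, so a peak's width and both groups enter it. Tn5 prefers certain base compositions and the signal was not corrected for GC content.

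The deposited tables also hold the fold changes, standard errors, test statistics and p-values of that comparison. These were not used, beyond a check that all 80367 listed peaks pass the authors' limits (an absolute log2 fold change over 1 and an adjusted p under 0.001). Peaks that did not pass were not analysed here.

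From the files, peak centres were set against genes of type miRNA and starts of protein_coding transcripts in the basic GENCODE M21 annotation. Hosts are annotated genes that contain the hairpin. The intervals beside shares are 95% Wilson intervals, which cover counting error only, and no test was made. A further motif string and a peak at a coding start are not reported here. The members, the miRNA lists and the motif strings were chosen with earlier results of these data known. The text names the miRNAs of the 6 family lists with a nearest peak, loci with 3 or more peaks, the 5 opened and 5 closed peaks of highest mean signal, and the 5 strongest peaks over an official hairpin gene. The rule and the motif search were tested on simulated data. The RefSeq sequences of 1005 hairpins equalled the genome used (GRCm38.p6) at their positions, all 1005 tested. Python 3.11.15, numpy 2.4.6, pandas 2.3.3, scipy 1.17.1 and matplotlib 3.10.9 were used. Alternatives were other distances, reference points, annotations and chromosome sets.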

Additional observations from a re-analysis of the deposited data

How the results depend on the processing

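The opened share of peaks near miRNA genes lay between 52.1% and 64.9% under 12 alternatives, and in 11 of them it stayed within the interval of the reported 55.8%. With no limit on the distance to a coding start it was 64.9%, since that adds peaks at coding promoters. The number of peaks was 308 with miRNA genes within 2 kb, 1340 with miRNA genes within 10 kb and 430 with official symbols only, by construction of those rules, and within 1.5 times of 692 under the other 8. The median mean signal was 34.9 normalized reads over all 692 peaks, 38.6 with official symbols only and 34.2 without chromosome 11. Searching whole peaks raised 9 of the 12 motif shares near miRNA genes and left 3 as they were (FOX in closed peaks, NFI in both lists). In opened peaks the share was 25.1% for TEAD, 16.1% for AP-1 and 27.5% for RBPJ. In closed peaks it was 18.6% for NKX2 and 21.9% for RBPJ, and the other 7 shares stayed within their intervals. At 10 kb 57.5% of all peaks were opened, and the lists had 8 opened of 35 (neural and neuroendocrine), 10 of 17 (epithelial), 22 of 37 (mesenchymal and growth factor responsive), 6 of 7 (blood and endothelial), 1 of 7 (muscle) and 12 of 13 (proliferation, pluripotency and let-7). The comprehensive annotation, the counts by list under other limits, and leaving out chromosome 11 were added after seeing the data. No paired analysis was possible because the files used hold values of the whole comparison and none of single libraries, and leaving out replicates was not possible for the same reason. The depth of the libraries is unknown.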
